A study of Homo sapiens and Mus musculus with 16 samples.

Results

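The regions described here are strong open-chromatin regions that lie away from gene starts and that were listed in a mouse pancreatic liver metastasis line but not in the matched primary tumor line. They were chosen by the region score and by the listing in both groups. A member had a score of 380 or more in the list of the liver mets line, shared not even 1 bp with any region of the primary tumor list, and lay more than 1 kb from every annotated transcript start. 1587 regions met these conditions, out of 80843 in the mets list and 148917 in both mouse lists together. The score and the absence from the tumor list are therefore descriptions and not findings. Most measures given below that the rule did not use were set beside strong distal regions that both lists held ("strong shared regions", 26450 regions), or beside weaker regions. Counts of neighboring members and of stretches have no such comparison.

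Open chromatin was mapped by ATAC-seq, which uses a transposase to tag DNA that nucleosomes leave accessible, and a called region is a place with many such tags. The series holds 4 groups of 4 samples. The mouse groups are untreated cell lines grown from a KPC primary tumor ("KPC primary tumor") and from liver metastases of the matched model ("KPC liver mets"), with the genotype field WT in both. KPC is a genetically engineered mouse model of pancreatic ductal adenocarcinoma (PDAC). The human groups are HPAF-II control (Cas9) and HPAF-II HNF4G-KO cells, which were not used here. Each mouse group was 1 cell line, and its 4 samples were deposited as 1 pooled region list, so that no value has a spread between replicates, no test between the lines was possible and the read depth behind a region is unknown. The intervals given below cover counting error only, at the 95% level, and treat neighboring regions as independent.

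Distal open regions are mostly enhancers, stretches where sequence-specific transcription factors bind and act on genes nearby or far along the chromosome. AP-1 dimers (Fos and Jun proteins) and TEAD factors bind at many enhancers of cultured carcinoma cells, RUNX factors set lineage programs, and FOXA and SOX proteins can bind DNA that is still wrapped in nucleosomes. CTCF, in contrast, marks chromatin boundaries and is bound at much the same places in many cell types.

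Of the 8 members with the highest scores, 6 are printed first because they show the sequences that the later counts are about. The fourth, near Sorl1, held none of these sequences and the seventh, near Gas1, held AP-1 alone, and both are left out. Each line gives 200 bp about the region's center, plus strand of mm10 (GRCm38.p6). Capitals mark the consensus of AP-1 (TGACTCA or TGAGTCA), RUNX (AAACCACA or TGTGGTTT) and FOXA (TGTTTAC or GTAAACA), and the word ACAATG or CATTGT, a form of the core that SOX proteins recognize.
chr4:17108074-17108273, in the gene-poor DNA near Mmp16: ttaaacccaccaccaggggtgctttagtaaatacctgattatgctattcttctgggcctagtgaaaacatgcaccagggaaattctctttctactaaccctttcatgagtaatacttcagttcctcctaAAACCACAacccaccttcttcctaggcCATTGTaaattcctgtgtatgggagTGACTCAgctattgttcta
chr14:82065280-82065479, far from Olfm4: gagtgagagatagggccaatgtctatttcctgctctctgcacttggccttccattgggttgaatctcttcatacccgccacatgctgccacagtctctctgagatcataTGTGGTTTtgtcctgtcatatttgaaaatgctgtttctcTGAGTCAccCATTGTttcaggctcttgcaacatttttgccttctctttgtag
chr3:130943277-130943476, beyond Lef1: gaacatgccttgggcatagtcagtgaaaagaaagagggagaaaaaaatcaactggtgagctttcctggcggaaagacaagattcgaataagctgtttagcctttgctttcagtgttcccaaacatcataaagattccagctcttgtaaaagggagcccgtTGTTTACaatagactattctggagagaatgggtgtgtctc
chr17:83075029-83075228, toward Pkdcc: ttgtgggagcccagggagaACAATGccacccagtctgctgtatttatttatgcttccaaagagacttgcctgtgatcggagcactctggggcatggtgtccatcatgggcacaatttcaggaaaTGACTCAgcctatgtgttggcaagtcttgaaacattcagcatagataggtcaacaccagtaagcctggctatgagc
chr15:71326759-71326958, toward Fam135b: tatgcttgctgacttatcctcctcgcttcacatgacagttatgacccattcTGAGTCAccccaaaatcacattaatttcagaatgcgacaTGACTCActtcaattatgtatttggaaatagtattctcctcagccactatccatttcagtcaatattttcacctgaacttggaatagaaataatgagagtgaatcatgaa
chr11:44049439-44049638, toward Adra1b: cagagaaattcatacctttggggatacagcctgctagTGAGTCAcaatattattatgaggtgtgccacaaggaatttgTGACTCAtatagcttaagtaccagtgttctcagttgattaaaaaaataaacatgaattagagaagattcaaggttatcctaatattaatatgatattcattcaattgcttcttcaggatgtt

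The first of these members scored 1351, the highest value of any member, and lay 744482 bp from the nearest protein-coding start, that of Mmp16, which encodes a membrane-bound matrix metalloprotease. No primary tumor region lay within 896012 bp of it. The second scored 1329 and lay 2064784 bp from Olfm4. Both hold RUNX, AP-1 and ACAATG matches within the same 200 bp. The third scored 1279 and lay 166719 bp from Lef1, a DNA-binding partner of beta-catenin in Wnt signaling, with a FOXA match alone. The Fam135b and Adra1b members hold 2 AP-1 matches each.

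Among the 20 members with the highest scores, from 1010 to 1351, only 4 lay within 20 kb of a protein-coding start. These were a member 14294 bp from Gbp4, an interferon-induced GTPase, a member 18271 bp from Adra1b, the alpha-1B adrenergic receptor, a member 11223 bp from Rtl6 and a member 9243 bp from Blnk, a B-cell adaptor. The other members of this group named Sorl1, Gas1, Mbd2, Nr2f2, 1700015G11Rik, Gm10181, H60b, Gmds, Dchs2 and Plxdc2 as the nearest protein-coding gene, at 35827 bp (Sorl1) or farther. 2 of the 20 (the Sorl1 and Mbd2 members) held none of the searched sequences. A nearest gene is a label of position and not a shown target.

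Members made up 5.66% of the 28037 strong distal regions of the mets list. In the reverse direction, 282 of 26095 strong distal regions of the primary tumor list (1.08%) had no overlap in the mets list. In both lists the share was lower at higher scores. In the mets list it was 14.0% (12.4 to 15.8) at scores of 380 to 400, 6.87% (6.21 to 7.60) at 500 to 600 and 0.726% (0.492 to 1.07) at 1000 or more, where 25 of 3442 regions were members. In the tumor list the same tiers gave 2.91%, 1.00% and 0.0624%.

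The lists themselves differed in a way that moves with this asymmetry. Regions numbered 80843 for mets, where the median score was 380 and the median width 409 bp, and 68074 for tumor, where these medians were 434 and 516 bp. The part of list length and depth in the 1587 members was not tested. Of 10 epithelial marker genes, 8 had a region within 1 kb of a start in the tumor list and 7 in the mets list, among them Epcam, Cdh1 and Krt19 in mets. Of 10 hepatocyte markers, Ttr had one in the tumor list and none did in the mets list. The counts were 3 and 3 for fibroblast, 5 and 5 for endothelial, 1 and 1 for immune and 3 and 2 for acinar markers. At the threshold, 109 distal mets-only regions scored 380 to 389 and 59 scored 370 to 379. An AP-1 match stood in 41.3% of the former and 37.3% of the latter, a RUNX match in 9.17% and 16.9%.

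The members were narrow, gene-distant and slightly AT-rich. Their median width was 424 bp (417 to 434), against 538 bp (534 to 541) in strong shared regions, and their median score was 478 against 629. Stronger regions are called wider, and the members were selected on score. The nearest transcript start lay at a median of 18924 bp (17576 to 20407), against 11062 bp (10882 to 11265), and the nearest protein-coding start at 45477 bp against 19946 bp. Members over 50 kb from every start made up 21.3% (19.4 to 23.4), against 9.79% (9.44 to 10.2) of strong shared regions. By the position of the center, 50.4% of members were intergenic, 46.7% intronic and 2.90% exonic, against 45.5%, 50.3% and 4.13%. The GC content of the 200 bp about the center had a median of 45.0% (44.5 to 45.5), against 47.5% (47.5 to 48.0). The weaker mets-only distal regions (score under 380, 12681 regions) fell between in distance and GC, with 14.0% over 50 kb from a start and a median GC of 46.0%. They were narrower than both sets, with a median width of 263 bp. Distal regions listed for tumor alone had 10.4% over 50 kb and a median GC of 46.0%.

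The consensus sequences of 10 factor families were searched on both strands in the 200 bp about each center. AP-1 matches were the most frequent, in 39.6% (37.2 to 42.0) of members against 35.0% of strong shared regions. RUNX matches stood in 6.99% (5.84 to 8.36) against 4.50%, FOXA matches in 7.94% (6.71 to 9.37) against 5.30% and TEAD matches (ACATTCCA or TGGAATGT) in 3.91% (3.06 to 4.98) against 2.39%. These 4 families were thus more frequent in members, and at least 1 of them stood in 52.3% (49.8 to 54.7) of members and 43.0% of strong shared regions. CTCF and KLF matches were rarer in members, at 2.02% (1.43 to 2.83) against 4.39% and at 0.630% (0.343 to 1.16) against 1.46%. The GATA factors' site (AGATAAG) stood in 3.65% against 3.88%, HNF4 (CAAAGTCCA) in 0.693% against 0.699%, HNF1 in 0.252% against 0.216% and ETS (CCGGAAGT) in 0.252% against 0.348%, each within the members' counting interval.

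The weaker regions, which were not members, give a separate reading of each family. RUNX was higher in weaker mets-only than in weaker shared regions by 2.01 percentage points, AP-1 by 1.87 and FOXA by 0.850, while CTCF was lower by 1.29. TEAD differed there by 0.156 points. Tumor-only distal regions (4692 regions) held a RUNX match in 2.49%, an AP-1 match in 30.8%, a FOXA match in 4.48%, a GATA match in 4.65% and a CTCF match in 1.79% (1.45 to 2.21). The low CTCF share of members was thus found in regions listed for tumor alone as well. A RUNX match was thus in a larger share of the regions listed for mets alone, strong (6.99%) or weaker, than of those listed for tumor alone.

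Search width mattered for AP-1. Over the whole region, which is narrower in members, an AP-1 match stood in 50.8% (48.3 to 53.2) of members and 52.4% of strong shared regions. The members' interval held the shared value, so members no longer stood apart. RUNX was higher in whole members too, at 10.8% (9.34 to 12.4) against 9.24%, and CTCF was lower, at 2.14% against 5.84%. FOXA, at 13.2% (11.7 to 15.0) against 12.3%, and TEAD, at 6.36% (5.27 to 7.67) against 5.36%, no longer stood apart beyond the members' interval. Written backwards, which holds the letters but breaks the site, the FOXA consensus stood in 5.42% (4.41 to 6.64) of members. In strong shared regions it stood in 4.47%, a value within the members' interval. The backward RUNX consensus stood in 0.630% and 0.881%, and the backward TEAD consensus in 0.441% and 0.529%.

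Members have lower scores and lower GC than strong shared regions, so the shares were also read within ranges of each, chosen after the first values had been seen. AP-1 stood in 37.8% of members and 29.2% of strong shared regions at scores of 380 to 500, in 40.5% and 31.6% at 500 to 700, and in 46.2% and 41.8% at 700 or more. FOXA matches were more frequent in members of higher score, going from 6.59% to 8.53% and 13.3% (9.02 to 19.2), while strong shared regions held it in 4.76%, 5.20% and 5.76%. CTCF ran the opposite way, with 2.97% of members against 7.94% in the lowest score range. In the highest, 1 of 173 members had a match, 0.578% (0.102 to 3.20) against 1.21%, within the interval. Within GC ranges some differences were narrower and others were not, and several of them lay within counting error. RUNX stood in 8.08% of members against 7.03% below 40% GC, 7.90% against 5.17% from 40% to 50% and 3.68% against 2.86% at 50% or more, and only the middle range had members' interval (6.34 to 9.80) above the shared value. AP-1 stood in 37.7% (32.4 to 43.3) against 35.6% in the first range and 41.3% (38.2 to 44.5) against 38.6% in the second, and only in the third, with 36.5% (31.7 to 41.7) against 30.1%, did the interval lie above. FOXA was higher below 40% GC, at 13.1% (9.76 to 17.4) against 7.91%, and at 50% or more, at 5.38% (3.47 to 8.25) against 3.31%, but not beyond the interval between them, at 7.26% (5.76 to 9.10) against 6.21%. TEAD was higher below 40% GC alone, at 6.40% (4.13 to 9.77) against 2.79%. CTCF was lower in the second range, at 1.81% (1.14 to 2.89) against 3.13%, and in the third, at 4.25% (2.59 to 6.89) against 7.21%.

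AP-1 and RUNX matches gathered at the middle of the members. Matches were placed by their middle. An AP-1 match lay within 40 bp of the center in 6.36% of members per 20 bp. At 220 to 300 bp the value was 0.449% per 20 bp, a ratio of 14.2, against 7.27 in strong shared regions. The same ratio was 7.12 against 2.83 for RUNX and 2.42 against 1.72 for FOXA. The RUNX ratio of members has no interval and rests on few flank matches, in 0.126% of members per 20 bp. The members' narrower width moves with these ratios, and its part was not tested. AP-1 and FOXA matches stood together in 31 members. Of the 126 members with a FOXA match, 24.6% (17.9 to 32.8) also had an AP-1 match, against 40.9% (38.4 to 43.4) of the other members. In strong shared regions the corresponding shares were 32.8% and 35.1%. Members with a RUNX match held AP-1 in 31.5% (23.6 to 40.7), an interval that held the 40.2% of the other members. In strong shared regions these shares were 29.4% and 35.3%. Members with a TEAD match held AP-1 in 30.6% (20.6 to 43.0) against 39.9%, and strong shared regions in 30.6% against 35.1%.

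A count of all 2080 words of 6 letters (a word and its reverse complement counted together) was then ranked by the difference between members and strong shared regions. The 10 words with the largest difference toward members had a median of 1 G or C among their 6 letters. They included AAACAA as the first, TAAACA, which is part of the forkhead site that FOXA proteins bind, ACAAAG and ACAATG, which are forms of the SOX core, and CCACAA, which is part of the RUNX site. All 10 were also more frequent in weaker mets-only than in weaker shared regions, as were 43.4% of all words. The 10 words most depleted in members, led by CCACCC in 11.5% against 16.6%, had a median of 5, and all 10 were lower in weaker mets-only regions too. The weaker mets-only regions also had a lower median GC than the weaker shared ones, 46.0% against 47.5%. Several of the leading words overlap each other. The part of base composition in both readings was not tested.

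ACAATG stood in 20.4% (18.4 to 22.4) of members and 13.1% of strong shared regions, whereas its backward spelling GTAACA stood in 7.69% and 7.26%. In weaker regions the word stood in 14.6% of mets-only and 11.8% of shared. Over whole regions the difference was smaller, with 34.0% (31.7 to 36.4) of members against 30.5% of strong shared regions, and 19.3% against 18.8% in weaker ones. CCACAA behaved in a similar way, with 23.3% against 17.0%, and 8.13% against 9.21% backwards. For AAACAA, in contrast, both spellings were higher in members, 28.8% against 20.8% and 25.8% against 19.9%. By score, ACAATG stood in 21.3%, 17.1% and 24.9% of members at 380 to 500, 500 to 700 and 700 or more, against 12.6%, 12.7% and 13.7% of strong shared regions. By GC content it stood in 24.2% (19.7 to 29.4) against 20.5% below 40%, where the interval held the shared value. From 40% to 50% it stood in 21.7% against 14.8%, and at 50% or more in 13.6% against 8.54%. Its matches were spread more evenly than those of AP-1, with a ratio of 2.01 between center and flank against 1.30 in strong shared regions.

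The first and the thirteenth member by score had 16 words of 16 letters in common, and a search for regions that share at least 20 such words in their 200 bp was added after sequences had been seen. 67 members (4.22%, 3.34 to 5.33) shared that much sequence with another distal mets region, against 3.03% (2.83 to 3.24) of strong shared regions. The group with the most members was chosen for that number, and held 66 distal mets regions with a median of 78.1% of bases soft-masked as repeats in the assembly. 34 of the 66 (51.5%) were absent from the tumor list, against 24.0% of all distal mets regions. 38 of them were strong and distal, of which 13 (34.2%, 21.2 to 50.1) were members, on 8 chromosomes, including the first and the thirteenth of the members by score. The next groups by members were larger, with 422 and 165 distal mets regions, and members were 9.78% (5.23 to 17.6) and 8.57% (3.99 to 17.5) of their strong ones, intervals that hold the 5.66% of all strong distal regions. The copies below are given in 1 orientation so that the common stretch stands in register. They are a selection from the group. A shared copy on chromosome 11 with a score of 1525, not printed, held CATTGT in this stretch but no AP-1 or RUNX match. Capitals mark the same consensus letters as above.
chr4:17108180-17108295, plus strand, member, score 1351: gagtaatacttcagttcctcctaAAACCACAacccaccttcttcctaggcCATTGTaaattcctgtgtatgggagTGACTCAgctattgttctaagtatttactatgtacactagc
chr7:52170362-52170477, plus strand, member, score 1065: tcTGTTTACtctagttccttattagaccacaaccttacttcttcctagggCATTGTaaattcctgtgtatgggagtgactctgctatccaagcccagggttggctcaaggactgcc
chrX:166035915-166036030, minus strand, member, score 523: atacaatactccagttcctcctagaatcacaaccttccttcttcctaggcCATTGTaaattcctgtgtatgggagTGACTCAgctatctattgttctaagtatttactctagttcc
chr14:12915070-12915185, plus strand, member, score 495: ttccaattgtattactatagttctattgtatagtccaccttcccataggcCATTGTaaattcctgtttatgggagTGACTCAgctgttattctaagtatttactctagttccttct
chr4:75554667-75554782, plus strand, member, score 489: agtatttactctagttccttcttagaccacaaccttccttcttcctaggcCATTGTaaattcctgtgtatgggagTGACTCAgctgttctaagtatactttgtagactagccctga
chr6:29308585-29308700, minus strand, shared with the tumor list, score 1366: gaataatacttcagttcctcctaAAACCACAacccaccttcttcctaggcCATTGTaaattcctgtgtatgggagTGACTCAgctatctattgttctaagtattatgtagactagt
chr3:96069868-96069983, plus strand, shared with the tumor list, score 1304: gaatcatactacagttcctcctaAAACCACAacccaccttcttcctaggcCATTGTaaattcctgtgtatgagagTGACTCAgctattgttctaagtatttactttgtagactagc

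The copies share the stretch around CATTGT and, a little further on, an AP-1 site that is intact in some and altered by a letter or more in others. Of the 13 members in the group, 11 held ACAATG or CATTGT, 9 an AP-1 match and 3 a RUNX match. Of its 25 strong shared regions, 21, 20 and 6 did. Repeated copies can trade reads when short reads are placed, and how such reads were treated in the ATAC-seq data is not given in the sources used here. Leaving out every region with such a copy left 1520 members, in which ACAATG stood in 20.1% against 12.9% of strong shared regions, RUNX in 6.78% against 4.42% and AP-1 in 39.2% against 34.9%, so these copies moved none of the shares beyond the members' interval.

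Along the chromosomes, members lay partly in company. Another member lay within 50 kb of 22.2% (20.3 to 24.4) of them and within 100 kb of 33.0%. The same count was not made for other regions, so whether members group more closely than others was not tested. The surroundings were sparse but rich in mets-only regions. A member had a median of 3 other mets regions within 50 kb, of which 37.6% were absent from the tumor list, against a median of 7 and 15.6% around strong shared regions. The nearest tumor region lay at a median of 26172 bp (23241 to 29981), from 67 bp to 4270933 bp, and 24 members had a tumor region within 500 bp.

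Between neighboring tumor regions, 1216 stretches held at least 1 member. 1015 members (64.0%) were alone in their stretch, whereas 21 stretches held 5 or more members each and together 137 (8.63%). These stretch counts have no comparison set either. The stretch with the most members ran over 2.28 Mb of chromosome 2 (15229011 to 17506780) across Malrd1, Nebl and Plxdc2, and held 13 members among 22 mets-only regions, with scores up to 1020. The next ran over 0.564 Mb of chromosome 11 (43767487 to 44331491) with Adra1b as its only protein-coding gene, and held 11 members among 24 mets-only regions. 9 members each stood in 3.35 Mb of chromosome 4 (16211926 to 19564217) with Cnbd1, Cngb3, Cpne3 and Mmp16 and in 0.981 Mb of chromosome 3 (7613791 to 8594718) with Stmn2. Other stretches with 5 or 6 members covered Rnf144b, Abcg2, Sox6, Isl1, Chrm3 and Ryr2, and Sox5 with Bcat1. A stretch of closed chromatin in the tumor line and a loss of its DNA cannot be told apart from region lists.

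Regions open in both lines near members also stood higher in mets. A shared distal region was given a percentile of score in each list, among shared regions, and the tumor percentile was taken from the mets percentile. Within 50 kb of a member the median difference was 3.93 percentile points (3.36 to 4.53), and 63.1% of 2802 regions were higher in mets. Elsewhere it was 1.05 points (0.895 to 1.17) and 54.1% of 42472. Shared regions within 1 kb of a start gave 0.708 points (0.0568 to 1.44) near members and -0.380 elsewhere, and without chromosome 13 the former was 0.533 (-0.202 to 1.30).

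Members were unevenly spread over chromosomes. Chromosome 13 held 172, which was 11.5% (9.99 to 13.2) of its strong distal mets regions, followed by chromosome 10 with 7.96% and chromosome 14 with 7.48%. Chromosomes 8, 17 and 19 had 3.33%, 2.98% and 2.84%. Chromosomes 13 and 10 also had the highest median difference of shared distal regions, 5.09 and 4.76 percentile points, and chromosome 8 the lowest, -3.27. Over the 19 autosomes and X, the share of members and that median had a Pearson r of 0.74 and a Spearman rho of 0.70 (0.64 and 0.65 without chromosome 13). The points share both lists, so this is a description. Chromosome copy number was not measured here, and its part in these shares was not tested. Without chromosome 13, members were 5.33% of strong distal regions.

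Genes were attached to members by distance alone. 827 members (52.1%) lay within 50 kb of a protein-coding start, and 1239 of 21924 protein-coding genes (5.65%) had at least 1 member within that distance. 115 genes had 2 or more and 23 had 3 or more. Cacna2d1, which encodes an auxiliary subunit of voltage-gated calcium channels, had 5, with scores of 467 to 662, and 11 of the 14 mets regions within 50 kb of its starts were absent from the tumor list. The drug efflux transporter gene Abcg2 had 4 (390 to 659), in a neighborhood where all 12 mets regions were mets-only. Adra1b had 4 (479 to 1067), Dclk1, a microtubule-associated kinase, had 4 (499 to 788), and Tgfbr3, the TGF-beta co-receptor betaglycan, had 4 (579 to 682).

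All 4 Tgfbr3 members held an AP-1 match, as did 3 of the 4 near Dclk1. None of the first 4 Cacna2d1 members along the chromosome held any of the 10 consensus sequences or ACAATG. The highest-scoring Dclk1 member is printed because 2 AP-1 matches stand in its central 100 bp.
chr3:55320745-55320844, plus strand, Dclk1: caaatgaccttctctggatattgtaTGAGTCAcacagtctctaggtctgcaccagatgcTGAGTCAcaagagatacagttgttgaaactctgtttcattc

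The genes with 3 members included Kalrn, Dlc1, Igsf11, an adhesion molecule of the immunoglobulin superfamily, Slc24a2, a potassium-dependent sodium-calcium exchanger, Unc79, a subunit of the sodium leak channel complex, Rnf144b, a ubiquitin ligase, Npl, Pawr, Palm2 and Nap1l2. The chemokine genes Ccl2, Ccl7 and Ccl11 and Gm17268 shared the same 3 members (scores of 481 to 605), and Blnk and Dntt shared theirs (381 to 1010). Gm2115 and the olfactory receptor gene Olfr458 completed the 23, and 63 distinct members stood near them.

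Among the gene lists described here, the Wnt pathway had the largest share of genes with a member within 50 kb. They were 8 of 33 (24.2%, 12.8 to 41.0), against 5.65% of all protein-coding genes. These 8 were the ligand gene Wnt4 (member score 521), the receptor genes Fzd7 (510), Lrp6 (500), Ror1 (390) and Lgr5 (515), and the genes of the nuclear factors Lef1 (397), Tcf7 (419) and Tcf7l2 (517), each with 1 member. Genes of this pathway have many open regions around them, and members were 6.90% of the 116 strong distal regions near them, against 5.66% over all strong distal mets regions.

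Within 50 kb, lists of surface and matrix genes gave few members each. 4 of 34 adhesion genes of neural tissue (11.8%, 4.67 to 26.6) had 1, near Ncam1 (456), Nrxn3 (860), Nlgn1 (478) and Lrrc4c (445), which were 4 of the 27 strong distal regions around that list. Among matrix proteases and their inhibitors, 4 of 28 had members, with 2 near Adam12 (467 and 518) and 1 each near Mmp16 (478), Adamts12 (546) and Timp3 (533), a metalloprotease inhibitor. Of 24 mesenchymal transition genes, the repressor gene Zeb2 (382), Itga5 (440), an integrin for fibronectin, and Tgfbi (551), a matrix protein, had a member. The Zeb2 member scored just above the threshold and lay only 103 bp from the nearest primary tumor region. With tumor regions within 500 bp counted as shared, 8.33% of this list had a member, against 12.5% by the rule used here. Of 37 axon guidance genes, the semaphorin receptors Plxna2 (406) and Nrp2 (493) and the netrin receptor Unc5c (449) had 1 each, and of 26 integrins, Itga5 and Itgb5 (406).

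In the remaining pathway and identity lists the counts were 3 of 31 TGF-beta and BMP genes (Tgfb2, Tgfbr3 and Smad5), 2 of 19 TEAD and YAP genes (Tead1, 488, and Amotl1, 422), 2 of 10 RUNX and CBFB genes (Runx3, 429, and the corepressor gene Tle1, 807), 2 of 24 epithelial genes (the claudin Cldn4, 464, and the junction protein gene Jup, 433), 2 of 28 pancreas and gut lineage genes (Sox9, 540, and Nr5a2, with 2 members at 682 and 674) and 1 of 19 basal and squamous genes (Lama3). None of the 19 AP-1 and ATF genes had a member within 50 kb, with a Wilson interval that reaches 16.8%. The Smad5 and Tgfbi members are the same region. The intervals of the RUNX and CBFB list (5.67 to 51.0) and of the protease list (5.70 to 31.5) began just above the 5.65% of all genes, and those of the other lists here, apart from Wnt, included it. By region, members were 4.65% of the 43 strong distal regions near the RUNX and CBFB list and 6.67% of the 75 near the protease list, close to the 5.66% of all. The member near Ncam1 is printed for an AP-1 match beside a doubled ETS consensus, in capitals.
chr9:49571810-49571909, plus strand, Ncam1: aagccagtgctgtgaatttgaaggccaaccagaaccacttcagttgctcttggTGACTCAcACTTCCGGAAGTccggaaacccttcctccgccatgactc

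Members lie far from genes, and the lists read otherwise when each member was given to its nearest protein-coding gene at any distance. 5.33% of all protein-coding genes were then nearest to a member. Of the adhesion genes of neural tissue, 17 of 34 (50%, 34.1 to 65.9) were, at a median of 168594 bp from the member. They included Lrrtm3, a synaptic adhesion gene, with 4 members, the neurexin gene Nrxn3 with 3 and Dscam, an immunoglobulin-type adhesion molecule, with 3. Members were 29 of the 130 strong distal regions nearest to this list (22.3%, 16 to 30.2). Over all strong distal regions, at any distance, they were 5.66%, so that here the share of regions was higher as well.

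Of TGF-beta and BMP genes, 8 of 31 (25.8%, 13.7 to 43.2) were nearest to a member, with 4 each at Tgfbr3 and Inhba, which encodes an activin subunit, and 3 each at Bmp2, Tgfb2 and Nog, a BMP antagonist. Members were 11.9% (7.84 to 17.7) of the 168 strong distal regions nearest to this list, 16% (9.40 to 25.9) of the 75 nearest to proteases and inhibitors, with 6 of the 12 at Mmp16, and 10.0% (6.05 to 16.1) of the 140 nearest to Wnt genes, with 5 at Fzd8 and 4 at Lef1. In the basal and squamous list they were 8 of 69 (11.6%, 5.99 to 21.2), 6 of them at Sox2. Axon guidance genes gave more by the count of genes, with 8 of 37 (21.6%, 11.4 to 37.2), but not by the share of regions, which was 3.79% (1.93 to 7.30) of 211. RUNX and CBFB genes likewise gave 4 of 10 genes (16.8 to 68.7) and 5.32% of 94 regions. These lists differ in how much gene-poor DNA surrounds their genes, and its part in these shares was not tested.

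The starts of the genes nearest to members differed in listing as well. For the nearest protein-coding gene, a region within 1 kb of its start stood in both lists for 794 of 1587 members and for 79.4% of strong shared regions, in the mets list alone for 10.4% (8.99 to 12.0) and 2.25% (2.08 to 2.44), and in neither list for 38.6% and 17.1%. In the tumor list alone it stood for 1.01% and 1.27%. The share with a start listed in mets alone was thus higher around members, as was the share with no listed start.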

How the data were processed

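ATAC-seq was done by the Omni-ATAC protocol on 16 samples in 4 groups. The deposited mouse files are region lists in BED form, 1 per group, with a score per region that the authors gave no unit for. The submitters' processing notes name Bowtie2 2.2.6, MACS2 2.1.1.20160309 and DiffBind, without roles, and mm10 (GRCm38). How the 4 replicates were combined is not given in the sources used here. Depth is unknown.

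Starts, exons and introns came from GENCODE M21, sequence from RefSeq GRCm38.p6. Overlap, distances, consensus and word counts were computed in Python 3.11.15 (numpy 2.4.6, pandas 2.3.3, scipy 1.17.1) and tested on simulated data. Medians have binomial intervals, shares Wilson intervals. Genes named are the nearest to the 20 members of highest score, those with 3 or more members within 50 kb, and list genes with a member. The members and lists were chosen with earlier results of these data known. Score and GC ranges, the Sox genes, position counts of ACAATG, sequence copies (at least 20 shared words of 16 letters, each with 9 or more different 3-letter parts and in at most 400 regions) and the omission of chromosome 13 were chosen after values had been seen. The HPAF-II lists were not used here, and some named items are not reported here.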

Additional observations from a re-analysis of the deposited data

How the results depend on the processing

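Of 340 values recomputed under 12 settings, 289 stayed within the counting interval (or 1.5 times the count) of the reported value. With no replicate values there was no test, leaving out a replicate was not possible, and depth could not be weighed. No paired analysis was possible because each group is 1 pooled list.

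A score of 300 or more gave 2840 members (8.13% of strong distal regions), a median width of 382 bp, a start distance of 16742 bp, 28.5% with another member within 50 kb, CTCF in 3.03%, KLF in 1.23% and 10.9% of genes near a member. A score of 500 or more gave 677 members (3.40%), 478 bp, 20619 bp, 54.9% intergenic, 18.5% near another member, FOXA in 9.75%, CTCF in 0.739%, KLF in 0.295% and 2.12% of genes. Gene lists that fell below their interval there included TEAD and YAP (10.5% to 0%), axon guidance (8.11% to 0%) and integrins (7.69% to 0%). The epithelial (8.33%) and the basal and squamous list (5.26%) also fell to 0%. Neural adhesion fell from 11.8% to 2.94% and mesenchymal transition from 12.5% to 4.17%. Counting as shared only regions covered by at least 50% gave 6.18%, a width of 442 bp and 6.27% of genes. Over 5 kb from every start, members were 6.24% of regions, at a median of 24796 bp, 54.5% intergenic, near 3.85% of genes. Against protein-coding starts alone the median distance was 45428 bp. In whole regions GC was 44.4%, FOXA 13.2%, GATA 8.25%, AP-1 50.8%, TEAD 6.36%, KLF 1.51%, RUNX 10.8% and ACAATG 34.0%. Within 100 kb, 33.0% of members had another and 10.0% of genes had a member, and 5.33% of genes were the nearest to a member, which moved the neural adhesion list from 11.8% to 50% of its genes, TGF-beta and BMP from 9.68% to 25.8% and axon guidance from 8.11% to 21.6%. Without chromosome 13 (chosen after seeing the data), members were 5.33% of regions and stood near 5.17% of genes. Leaving out regions with sequence copies moved none of its values outside the interval.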

Other observations

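Because the word ACAATG stood among the leading words, the 20 Sox genes were looked up in both lists, after that result had been seen. A region within 1 kb of a start was listed in both lines for 5 of them (Sox4, Sox6, Sox7, Sox9 and Sox13), in mets alone for 3 (Sox2, Sox15 and Sox21), in tumor alone for Sox8 and in neither for 11. Over all protein-coding genes the shares were 56.9% in both, 2.19% in mets alone, 1.06% in tumor alone and 39.9% in neither. A start listed in 1 line does not show that the gene is expressed there. 3 Sox genes had a member within 50 kb, Sox6 with 2 and Sox9 and Sox14 with 1 each, against 5.65% of all protein-coding genes. With 20 genes chosen after a result, these counts are a description. Members whose nearest protein-coding gene was an olfactory, vomeronasal or taste receptor numbered 15 (0.945%), against 0.359% of strong shared regions.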
